A study of Mus musculus with 6 samples.

Results

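The alcohol dehydrogenases (ADH), the aldehyde dehydrogenases (ALDH) and the aldo-keto reductases (AKR) of mouse liver were examined as a group of enzymes that oxidise or reduce alcohols, aldehydes and ketones. Members were the protein-coding genes whose symbol begins with Adh, Aldh or Akr followed by a digit, with the Aldh1a genes left out, and 40 of the 51912 genes listed met this rule. Of these, 6 are ADH genes, 17 are ALDH genes and 17 are AKR genes. RNA-seq was run on livers of 21 day old C57/B6 mice nursed by mothers exposed to TCS (triclosan, an antimicrobial additive) or by vehicle mothers, with 3 RNA samples in the TCS group and 3 in the vehicle group. By the study's methods each sample pooled RNA from 3 mice, which gives 9 mice per group, the mice were male, and the mothers received 0.012% TCS, or vehicle (DMSO in water) alone, in the chow through pregnancy and lactation. The sample labels give 120 ppm, which is the same proportion, but name the breastmilk. The labels name no mutation or transgene in these 6 samples. Neither the litters behind each pool nor the sample behind each numbered column could be told from the labels used here. The numbers 1 to 3 after TCS and vehicle are therefore those of the table's columns. By the methods, mice of each treatment group came from more than a single independent litter. Pools of a group may share litters, and as the mothers were dosed, the pools may not be independent units of exposure.

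Alcohol dehydrogenases oxidise ethanol, retinol and other alcohols to aldehydes, and aldehyde dehydrogenases carry the aldehydes on to acids. Aldo-keto reductases mostly run the other way, and reduce aldehydes, ketones and the keto groups of steroids and sugars with NADPH. In the liver these families handle dietary ethanol, the reactive aldehydes left by lipid peroxidation, semialdehydes formed in amino acid breakdown, and intermediates of bile acid and steroid hormone metabolism. Several of the genes lie in tandem arrays that arose by duplication, so near copies of one another are measured side by side.

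Levels are given in TPM, a share of each sample's transcripts, and how many reads lie behind a value is unknown. Differences between groups are log2 fold changes of TCS over vehicle from limma, a linear model that shares the spread of replicates across genes, fitted on log2(TPM + 1). A gene was tested where 3 or more samples held 1 TPM or more, and passed with a Benjamini-Hochberg adjusted p under 0.05 over all 13325 genes tested. On the scale with 1 added, fold changes of genes at a few TPM are understated.

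The RNA carried the markers of liver. Albumin (Alb) stood at 87600 to 89900 TPM in TCS livers and 95700 to 107000 TPM in vehicle livers. Summed over 7 hepatocyte markers, the level was 110244 to 114086 TPM in TCS livers and 125261 to 133426 TPM in vehicle livers, and 4 of the 7 were lower in TCS livers without overlap. Markers of periportal hepatocytes (6 genes), the cells around the incoming portal vessels, summed to 2171 to 2695 TPM in TCS livers and 3187 to 3848 TPM in vehicle livers. Of these, 3 of the 6 were lower without overlap. Pck1 weighed most in that sum, at a mean of 1277 TPM in TCS livers and 2173 TPM in vehicle livers. The list did not move as one, since Cyp2f2 and Hal had positive log2 fold changes of 0.21 and 0.01. The 6 pericentral markers overlapped between the groups in their sum (5669 to 6867 TPM in TCS livers, 5877 to 8515 TPM in vehicle livers). Among them 1 of the 6 was higher without overlap. Of all genes tested, 4.61% were lower and 25.1% higher in TCS livers without overlap. The 4 erythroid markers summed to 2801 to 3094 TPM in TCS livers and 3231 to 3454 TPM in vehicle livers, with 1 of the 4 lower without overlap. Markers of Kupffer cells, sinusoidal endothelium, stellate cells, cholangiocytes, and lymphocytes and neutrophils overlapped in their sums, although 2 of the 5 endothelial markers were lower and 1 higher in TCS livers without overlap, and 1 of the 5 stellate markers was lower. Pancreatic acinar markers were uneven between samples, at 1.05 to 357 TPM in TCS livers and 43.5 to 355 TPM in vehicle livers. None of the marker genes was at 0 in every sample. In pooled tissue, fewer cells of a type and less RNA per cell cannot be told apart, and the part of these shifts in the results on the enzymes was not tested.

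The sex-linked transcripts went against the methods' statement of male mice. Xist, which is made from the inactive X chromosome of female cells, stood at 0.0144, 98.7 and 44.0 TPM in TCS samples 1, 2 and 3, against 46.4, 1.80 and 88.3 TPM in vehicle samples 1, 2 and 3. The Y-linked gene Ddx3y was present in every sample, at 31.9, 11.6 and 24.8 TPM in TCS livers and 24.6, 34.7 and 12.2 TPM in vehicle livers. Xist levels of the groups overlapped, and TCS sample 1 and vehicle sample 2 were the samples with little Xist.

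Mean levels of the 40 members over the 6 samples ran between 0.0232 TPM for Adh6a and 2140 TPM for Adh1. Of these, 3 averaged at least 1000 TPM, 13 lay between 100 and 1000 TPM, 9 between 10 and 100 TPM, 5 between 1 and 10 TPM, and 10 under 1 TPM. Adh1 was followed by Akr1c6 at 1377 TPM and Aldh2 at 1247 TPM, and these 3 genes made up 58% of the members' summed TPM. Aldh1l1 came next at 514 TPM. In each sample the 40 genes together took 0.873% to 0.892% of all TPM in TCS livers and 0.699% to 0.810% in vehicle livers, so that their summed share was larger in every TCS sample than in any vehicle sample. This holds for TPM as deposited. Rescaling by the median-of-ratios factors given below lowers every TCS sum and raises every vehicle sum. Whether the summed share stays larger in every TCS sample after it was not tested.

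In all, 30 members passed the filter on low values and were tested, and 10 did not. Of the 30, 0 passed the adjusted threshold, where 23 of all 13325 genes tested did (0.173%). At an unadjusted p under 0.05 in limma, 11 members were higher in TCS livers (36.7%, against 19.5% of all genes tested) and 2 were lower (6.67%, against 3.5%). Counting members whose TCS samples all lay on one side of all vehicle samples, 9 were higher in TCS livers, which is 30% of the 30 against a background of 25.1%, and 1 was lower, 3.33% against 4.61%. On TPM as deposited, the counts without overlap stood near their background, while those at an unadjusted p under 0.05 were a larger share of the members than of all genes. A positive log2 fold change was found for 25 of the 30 members, and for 9968 of the 13325 genes. The median over the members was 0.15 and the median over all genes was 0.13, a difference of 0.018, so most of the upward lean of the members was shared by the table as a whole.

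That lean depended on scaling. When the samples were rescaled by median-of-ratios factors, which lie between 1.01 and 1.11 for TCS and between 0.928 and 0.983 for vehicle samples, the median of all genes came to 0.00 and 15 of the 30 members kept a positive log2 fold change. After this rescaling 3 members were higher without overlap (Adh1, Adh4 and Akr1d1) and 3 lower (Aldh16a1, Aldh1l1 and Akr1b7), against a background of 11.6% higher and 12.5% lower. Under quantile normalization 5 were higher, with Akr1c6 and Akr1c14 added to the 3 above, and the same 3 were lower, against 12.3% and 11.9% of all genes. At an unadjusted p under 0.05 in limma, 3 of the 30 were higher and 3 lower after median-of-ratios rescaling, against 1107 and 1195 of 13325 genes. Under quantile normalization 5 were higher and 2 lower, against 1160 and 1103 of 13325 genes. Log2 fold changes in the paragraphs that follow are of TPM as deposited and can be read against the median of 0.13.

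**Figure D1:**
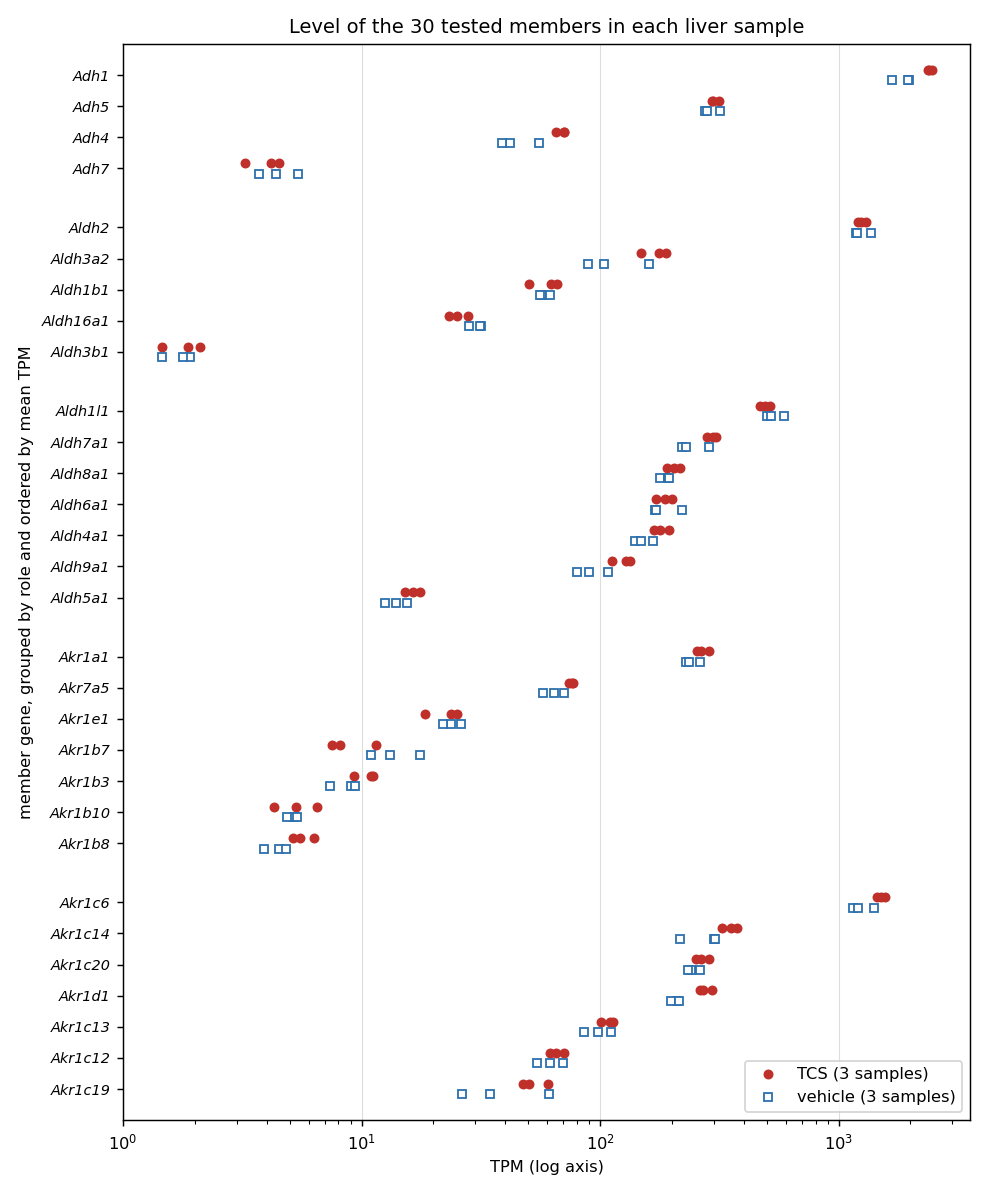
Level of the 30 tested members in each of the 6 liver samples, in TPM on a log axis, with members grouped from top to bottom as ADH, ALDH of acetaldehyde and lipid aldehydes, ALDH of amino acids, carnitine and folate, AKR families 1A, 1B, 1E and 7, and AKR families 1C and 1D. Filled circles are TCS samples and open squares vehicle samples; for Adh1 the circles lie at 2370 to 2460 TPM and the squares at 1680 to 1980 TPM, while the symbols of Aldh2 are intermixed.

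The alcohol dehydrogenases held the highest mean summed level of the 5 enzyme groups in both TCS and vehicle livers. Of the 6 ADH genes 4 were tested, and 2 of these were higher in TCS livers without overlap, where 25.1% of all genes tested were. All 6 lie on the same strand of chromosome 3 within 238 kb (GRCm38, 138217760 to 138455499), in the order Adh7, Adh1, Adh6a, Adh6b, Adh4, Adh5. Adh1 (ENSMUSG00000074207), the class I enzyme and the main hepatic oxidase of ethanol and retinol, stood at 2370, 2460 and 2400 TPM in TCS livers, against 1680, 1980 and 1950 TPM in vehicle livers. The lowest TCS sample was above the highest vehicle sample, and the TCS samples were also closer together, at 2410 ± 45.8 TPM against 1870 ± 165 TPM in vehicle livers (SD, n = 3 each). This is a log2 fold change of 0.37 (SE 0.08) with an adjusted p of 0.0981 in limma, which missed the threshold.

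Adh4 (ENSMUSG00000037797), the class II enzyme, which works at higher alcohol concentrations and on longer-chain alcohols, showed the largest positive log2 fold change among the tested members. Its level was 70.4, 65.0 and 70.3 TPM in TCS livers, against 41.7, 38.6 and 55.5 TPM in vehicle livers. The groups did not overlap, and the log2 fold change was 0.60 (SE 0.14, adjusted p = 0.10). Adh5 (ENSMUSG00000028138), the class III enzyme that oxidises the glutathione adduct of formaldehyde, had 316, 295 and 297 TPM in TCS livers and 275, 319 and 281 TPM in vehicle livers. Its samples overlapped, and its log2 fold change of 0.06 (SE 0.08, adjusted p = 0.684) turned negative, to -0.10 and -0.02, under median-of-ratios and quantile scaling. Adh7, the class IV enzyme best known from the stomach, was low, at 3.98 ± 0.66 TPM in TCS livers and 4.51 ± 0.86 TPM in vehicle livers (SD, n = 3 each), with overlap. Adh6a and Adh6b, between Adh1 and Adh4 on the chromosome, reached at most 0.0656 and 0.357 TPM in any sample and were not tested.

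A ratio of 2 genes inside a sample does not depend on how samples are scaled against each other. Adh1 was 7.5, 8.34 and 8.08 times the level of its neighbour Adh5 in TCS livers, against 6.11, 6.21 and 6.94 times in vehicle livers, and Adh4 was 0.223, 0.220 and 0.237 of Adh5 in TCS livers, against 0.152, 0.121 and 0.198 in vehicle livers. Neither ratio overlapped between the groups, which does not show that Adh5 stayed level. Such ratios were taken for the 10 members without overlap, each over the most abundant overlapping member of its own group, and 5 of the 10 were free of overlap, all 5 higher in TCS livers. Because these pairs were picked after the levels were seen, and by whether the groups overlapped, the choice favoured separate ratios and they carry no test.

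The promoters of Adh1, Adh4 and Akr1d1, the 3 members that were higher without overlap under each scaling, are shown so that their starts can be compared, with Aldh9a1, the fourth in limma's order of p among the members, as a promoter that holds matches to the motifs searched. Each window runs from 250 bases before to 50 bases after the RefSeq start on GRCm38.p6, 5′ to 3′, and capitals mark a match to a searched motif.
Adh1, chr3:138277335-138277634, plus strand: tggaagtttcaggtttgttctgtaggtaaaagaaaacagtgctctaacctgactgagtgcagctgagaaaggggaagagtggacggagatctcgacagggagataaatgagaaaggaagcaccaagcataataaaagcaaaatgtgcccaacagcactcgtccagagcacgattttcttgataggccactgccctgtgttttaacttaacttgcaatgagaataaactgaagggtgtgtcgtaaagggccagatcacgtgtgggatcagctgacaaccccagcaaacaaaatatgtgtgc
Adh4, chr3:138415247-138415546, plus strand: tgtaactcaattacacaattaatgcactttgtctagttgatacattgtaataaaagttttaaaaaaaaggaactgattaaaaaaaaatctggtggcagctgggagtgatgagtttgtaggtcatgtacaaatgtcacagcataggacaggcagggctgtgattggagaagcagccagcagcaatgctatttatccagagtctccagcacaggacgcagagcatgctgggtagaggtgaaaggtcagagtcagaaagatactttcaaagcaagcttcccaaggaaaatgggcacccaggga
Akr1d1, chr6:37529923-37530222, plus strand: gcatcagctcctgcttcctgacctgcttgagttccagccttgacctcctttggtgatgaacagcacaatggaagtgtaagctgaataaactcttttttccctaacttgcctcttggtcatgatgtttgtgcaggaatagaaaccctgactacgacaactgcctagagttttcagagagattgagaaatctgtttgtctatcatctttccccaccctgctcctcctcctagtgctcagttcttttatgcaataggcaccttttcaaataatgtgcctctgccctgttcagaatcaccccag
Aldh9a1, chr1:167349741-167350040, plus strand: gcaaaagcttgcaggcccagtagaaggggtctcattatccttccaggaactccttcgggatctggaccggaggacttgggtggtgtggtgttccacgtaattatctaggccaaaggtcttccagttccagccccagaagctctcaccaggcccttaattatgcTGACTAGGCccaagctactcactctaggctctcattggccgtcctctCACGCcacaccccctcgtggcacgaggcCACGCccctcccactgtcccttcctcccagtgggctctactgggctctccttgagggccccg
Both strands were searched for TGACNNNGC, the core of the antioxidant response element, for GCGTG, the core of the dioxin response element, for AGGTCANAGGTCA, a direct repeat with 1 base between its copies that nuclear receptor dimers bind, and for TATAAA, the box that helps place the polymerase, which was added after the other 3 were chosen. RefSeq promoters were found for 32 of the 40 members. The antioxidant core was in 4 of these 32 and in 12.5% of 27025 promoters of the table, the dioxin core in 10 of 32 and in 32.5% of all, the direct repeat in 0 of 32 and in 0.044% of all, and the TATA box in 5 of 32 and in 14.2% of all. The windows of Adh1, Adh4 and Akr1d1 held none of the 4 motifs, while that of Aldh9a1 held 1 antioxidant core and 2 dioxin cores, which do not overlap each other. A match describes letters in this window and nothing more.

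**Figure D2:**
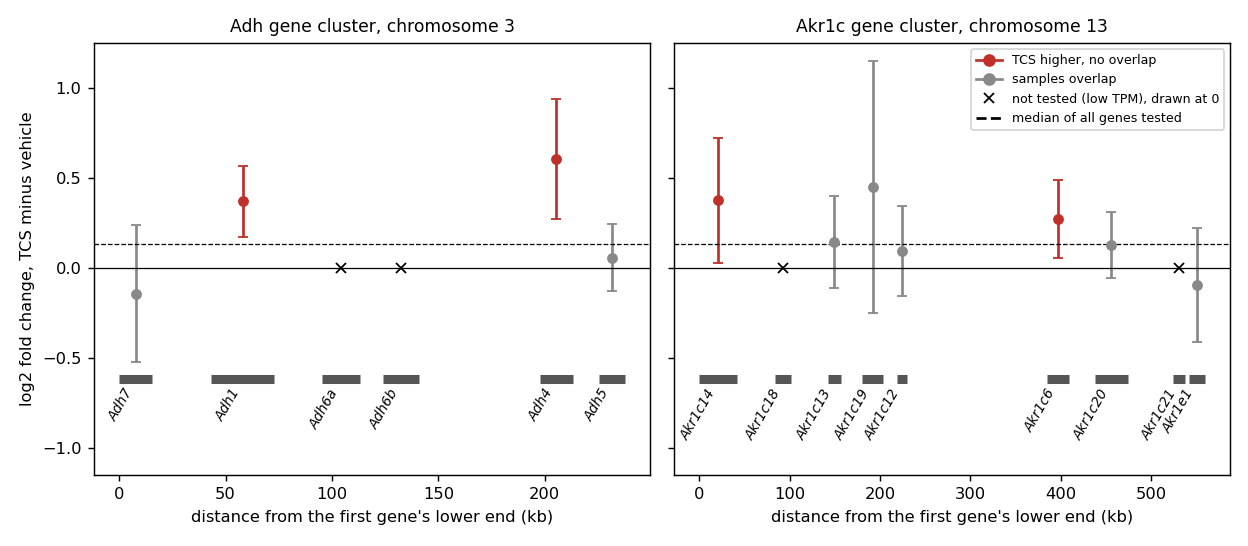
Log2 fold change of TCS minus vehicle on log2(TPM + 1), with 95% intervals, at the position of each gene in the Adh cluster of chromosome 3 (left) and the Akr1c cluster of chromosome 13 (right), with distance in kb from the first gene's lower end, gene bodies as grey bars and untested genes as crosses. Adh1 at 0.37 and Adh4 at 0.60 stand above the dashed median of 0.13 with Adh7 and Adh5 on either side of them below it, and in the Akr1c cluster Akr1c14 and Akr1c6 are the points without overlap.

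Aldehyde dehydrogenases of acetaldehyde and lipid aldehydes showed no common shift. Of 8 genes 5 were tested, 0 were higher without overlap and 1 was lower (25.1% and 4.61% of all genes), and the median log2 fold change of the 5 was 0.02. Aldh2 (ENSMUSG00000029455, chromosome 5), the mitochondrial enzyme that clears acetaldehyde made from ethanol, stood at 1300, 1240 and 1200 TPM in TCS livers, against 1180, 1370 and 1190 TPM in vehicle livers. Both groups averaged 1247 TPM and the samples were intermixed, with a log2 fold change of 0.00 (SE 0.08, 95% interval -0.19 to 0.20, adjusted p = 0.987). Its sign turned in 5 of the 16 alternative fits. Of the enzymes that act one after the other on ethanol, Adh1 was thus higher in TCS livers without overlap, while Aldh2 overlapped.

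Aldh3a2 (ENSMUSG00000010025, chromosome 11), the fatty aldehyde dehydrogenase of the endoplasmic reticulum, had 148, 177 and 188 TPM in TCS livers, against 88.6, 161 and 104 TPM in vehicle livers. Vehicle sample 2 lay above TCS sample 1, so the groups overlapped by this one pair of samples, and the log2 fold change of 0.57 (SE 0.22) had an adjusted p of 0.199. Without vehicle sample 2 it was 0.82 (adjusted p = 0.0875), and without vehicle sample 1 it was 0.39 (adjusted p = 0.385), so its size depended on which vehicle sample was left out. Aldh16a1 (ENSMUSG00000007833, chromosome 7), whose protein in mammals lacks the catalytic cysteine of the family, was the single member lower without overlap, at 27.8, 25.1 and 23.3 TPM in TCS livers, against 31.8, 28.3 and 31.4 TPM in vehicle livers. Its highest TCS sample and its lowest vehicle sample were 0.5 TPM apart, and the log2 fold change was -0.26 (SE 0.09, adjusted p = 0.174). Its direction was the same in all 16 alternative fits.

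Aldh1b1, a second mitochondrial acetaldehyde dehydrogenase, had 59.4 ± 8.21 TPM in TCS livers and 58.1 ± 3.01 TPM in vehicle livers, and Aldh3b1, which oxidises aldehydes from lipid peroxidation, had 1.81 ± 0.33 TPM in TCS livers and 1.71 ± 0.23 TPM in vehicle livers (SD, n = 3 each). Both overlapped between the groups, and both had a log2 fold change that turned negative under either rescaling. Aldh3b2, Aldh3b3 and Aldh3a1 were not tested. Aldh3a1, a cytosolic form that is scarce in normal liver, was listed at 0.0482, 0.687 and 0.980 TPM in TCS livers, against 0.136, 0 and 0 TPM in vehicle livers, and with TCS sample 1 below vehicle sample 1 the groups overlapped.

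Aldehyde dehydrogenases of amino acids, carnitine and folate included 9 genes, of which 7 were tested and 2 were higher in TCS livers without overlap (28.6%, against 25.1% of all genes). A positive log2 fold change was seen in 6 of the 7, and the median was 0.21, but Aldh8a1 and Aldh6a1 turned negative under median-of-ratios scaling. Aldh9a1 (ENSMUSG00000026687, chromosome 1, 167349991 to 167368532), which makes the butyrobetaine used in carnitine synthesis, had 112, 128 and 134 TPM in TCS livers, against 79.8, 108 and 89.8 TPM in vehicle livers. The lowest TCS sample, at 112 TPM, lay just above vehicle sample 2 at 108 TPM, and the log2 fold change was 0.43 (SE 0.13, adjusted p = 0.134). Aldh4a1 (ENSMUSG00000028737, chromosome 4), the proline pathway enzyme that forms glutamate in mitochondria, had 168, 195 and 179 TPM in TCS livers, against 140, 167 and 149 TPM in vehicle livers. Its groups were free of overlap by 1 TPM, with a log2 fold change of 0.25 (SE 0.09, adjusted p = 0.185).

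Aldh1l1 (ENSMUSG00000030088, chromosome 6), the cytosolic 10-formyltetrahydrofolate dehydrogenase, was the most abundant gene of the group and leaned the other way. It stood at 489, 513 and 470 TPM in TCS livers, against 503, 588 and 520 TPM in vehicle livers, and TCS sample 2 lay above vehicle sample 1. Its log2 fold change was -0.13 (SE 0.08, adjusted p = 0.366), and was negative in all 16 alternative fits. Over Aldh1l1 in the same sample, Aldh9a1 was at 0.229, 0.250 and 0.285 in TCS livers, against 0.159, 0.184 and 0.173 in vehicle livers, and Aldh4a1 at 0.344, 0.380 and 0.381 in TCS livers, against 0.278, 0.284 and 0.287 in vehicle livers. Both ratios were free of overlap. The genes on top had been picked as higher without overlap and Aldh1l1 as overlapping, so the choice of pairs favoured this outcome.

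Aldh7a1 (ENSMUSG00000053644), the lysine pathway enzyme also called antiquitin, had 280, 307 and 298 TPM in TCS livers, against 220, 287 and 230 TPM in vehicle livers. The overlap came from vehicle sample 2, which lay above TCS sample 1, and the log2 fold change was 0.27 (SE 0.11, adjusted p = 0.211). Aldh8a1, an enzyme of the kynurenine branch of tryptophan breakdown, had 204 ± 13 TPM in TCS livers and 189 ± 8.50 TPM in vehicle livers. Aldh6a1, the methylmalonate semialdehyde dehydrogenase of valine breakdown, had 186 ± 14.0 TPM in TCS livers and 187 ± 28.6 TPM in vehicle livers, and Aldh5a1, which oxidises succinic semialdehyde from GABA, had 16.4 ± 1.15 TPM in TCS livers and 14.0 ± 1.5 TPM in vehicle livers (SD, n = 3 each). All 3 overlapped between the groups. Aldh18a1, which makes the precursor of proline rather than breaking it down, averaged 1.11 ± 0.48 TPM in TCS livers and 0.659 ± 0.200 TPM in vehicle livers with overlap, and neither it nor Aldh1l2, the mitochondrial counterpart of Aldh1l1, was tested.

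**Figure D3:**
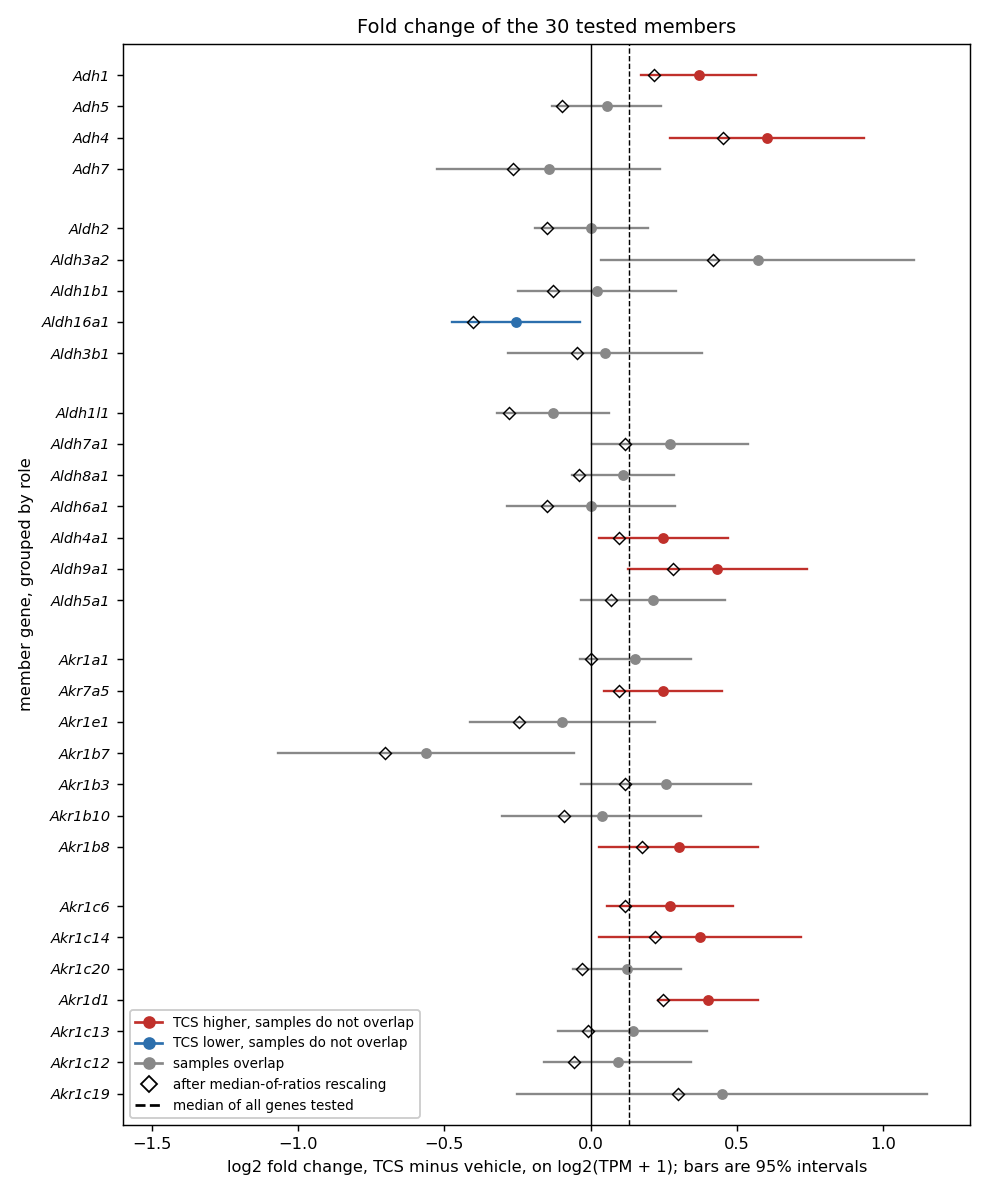
Log2 fold change of TCS minus vehicle on log2(TPM + 1) for the 30 tested members, grouped as in the plot of levels, with 95% intervals from limma; red points are higher and blue points lower in TCS livers without overlap, and diamonds give the value after median-of-ratios rescaling. The 9 red points and 1 blue point stand among 20 grey ones, the diamonds lie to the left of the points, and 15 of them remain above 0.

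Aldehyde and sugar reductases of the AKR families 1A, 1B, 1E and 7 comprised 7 genes, all tested, of which 2 were higher in TCS livers without overlap (28.6%, against 25.1% of all genes). Akr1a1 (ENSMUSG00000028692, chromosome 4), the general aldehyde reductase that in mice also serves ascorbate synthesis, had 264, 255 and 286 TPM in TCS livers, against 228, 261 and 235 TPM in vehicle livers. It overlapped through vehicle sample 2, and its log2 fold change of 0.15 (SE 0.08, adjusted p = 0.289) came to 0.00 after median-of-ratios rescaling. Akr7a5 (ENSMUSG00000028743, chromosome 4), which reduces succinic semialdehyde and the dialdehyde of aflatoxin, had 76.5, 77.1 and 74.2 TPM in TCS livers, against 57.8, 70.3 and 63.9 TPM in vehicle livers. The TCS samples spanned 2.9 TPM and lay above every vehicle sample, with a log2 fold change of 0.25 (SE 0.08, adjusted p = 0.166). Akr7a5 and Aldh4a1 lie within 339 kb of each other on chromosome 4.

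The 4 Akr1b genes lie within 121 kb of chromosome 6 (34302434 to 34423142) in the order Akr1b3, Akr1b8, Akr1b10, Akr1b7, and did not lean one way. Akr1b8 (ENSMUSG00000029762), a reductase of lipid aldehydes and retinal, had 6.29, 5.17 and 5.53 TPM in TCS livers, against 3.89, 4.51 and 4.82 TPM in vehicle livers, without overlap, and a log2 fold change of 0.30 (SE 0.11, adjusted p = 0.189). Akr1b7 (ENSMUSG00000052131), first described in the vas deferens and adrenal gland, had 7.53, 11.5 and 8.13 TPM in TCS livers, against 13.2, 17.6 and 10.9 TPM in vehicle livers. Its overlap rested on TCS sample 2 and vehicle sample 3, and its log2 fold change of -0.56 (SE 0.21, adjusted p = 0.189) was the lowest among the tested members and was negative in all 16 alternative fits. Akr1b3, the aldose reductase that turns glucose into sorbitol, had 10.5 ± 1.05 TPM in TCS livers and 8.60 ± 1.09 TPM in vehicle livers (SD, n = 3 each), and Akr1b10 had 5.37 ± 1.12 TPM in TCS livers and 5.14 ± 0.25 TPM in vehicle livers, both with overlap. The coding sequences of Akr1b7 and Akr1b10 are 89.2% identical, and those of Akr1b7 and Akr1b8 85.7%, yet their log2 fold changes carried different signs, 0.04 for Akr1b10 (negative under either rescaling) and 0.30 for Akr1b8. The difference between these genes was not tested. Akr1e1, which reduces 1,5-anhydrofructose, had 22.4 ± 3.56 TPM in TCS livers and 23.9 ± 2.01 TPM in vehicle livers (SD, n = 3 each), with overlap.

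The AKR families 1C and 1D, which act on steroids and bile acid intermediates, comprised 10 genes, of which 7 were tested. All 7 had a positive log2 fold change with a median of 0.27, where 74.8% of all genes had a positive one. Of them 3 were higher without overlap (42.9%, against 25.1% of all genes). Under median-of-ratios rescaling 3 of the 7 (Akr1c20, Akr1c12 and Akr1c13) turned negative. After it Akr1c6 and Akr1c14 overlapped, which left Akr1d1 higher without overlap, where 11.6% of all genes were. Under quantile normalization Akr1c6 and Akr1c14 stayed free of overlap, where 12.3% of all genes were higher. Akr1d1 (ENSMUSG00000038641, chromosome 6, 37530173 to 37568815), the 5-beta-reductase that sets the bent ring of bile acids, had 269, 262 and 295 TPM in TCS livers, against 211, 198 and 215 TPM in vehicle livers. The lowest TCS sample lay 47 TPM above the highest vehicle sample, and the log2 fold change was 0.40 (SE 0.07). Its adjusted p of 0.0847 was the smallest among the 30 tested members.

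Akr1c6 (ENSMUSG00000021210), the 17-beta-hydroxysteroid dehydrogenase of mouse liver, had 1500, 1450 and 1560 TPM in TCS livers, against 1150, 1200 and 1400 TPM in vehicle livers. Vehicle sample 3 came within 50 TPM of TCS sample 2 without crossing it, and the log2 fold change was 0.27 (SE 0.09, adjusted p = 0.158). Akr1c14 (ENSMUSG00000033715), a 3-alpha-hydroxysteroid dehydrogenase, had 355, 325 and 373 TPM in TCS livers, against 216, 300 and 304 TPM in vehicle livers. It too was free of overlap, with a log2 fold change of 0.37 (SE 0.14, adjusted p = 0.196), and vehicle sample 1 stood well below the other two. Without vehicle sample 1 the log2 fold change was 0.21.

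The other tested Akr1c genes overlapped between the groups. Akr1c20 had 268 ± 17.8 TPM in TCS livers and 245 ± 14.0 TPM in vehicle livers, Akr1c13 had 108 ± 6.25 TPM in TCS livers and 98.1 ± 12.7 TPM in vehicle livers, and Akr1c12 had 66.0 ± 4.32 TPM in TCS livers and 62.0 ± 7.55 TPM in vehicle livers (SD, n = 3 each). Akr1c19 was the most variable of them, at 50.4, 47.3 and 60.7 TPM in TCS livers, against 26.4, 61.0 and 34.4 TPM in vehicle livers, where vehicle sample 2 was the highest of all 6 samples. Its log2 fold change was 0.45 (SE 0.29, adjusted p = 0.381), and it was 0.78 (adjusted p = 0.126) without that sample and 0.19 (adjusted p = 0.721) without vehicle sample 1. Akr1c18, the 20-alpha-hydroxysteroid dehydrogenase that inactivates progesterone, was too low to be tested, but its samples did not overlap, at 0.312, 0.518 and 0.338 TPM in TCS livers, against 0.0974, 0.208 and 0.111 TPM in vehicle livers. Akr1c21, a 3-alpha and 17-alpha-hydroxysteroid dehydrogenase best known from kidney, and Akr1cl were listed at 0 in some samples of each group and reached at most 0.407 TPM.

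Akr1c genes are close copies of one another, which limits how far reads can be given to one of them. The 8 Akr1c genes and Akr1e1 lie within 560 kb of chromosome 13 (4049011 to 4609174). Over 36 pairs among these and Akr1cl the coding sequences were 71.6% to 96.2% identical, with a median of 75%. The pair Akr1c12 and Akr1c13 was the closest, at 96.2% over 969 bases with 228 bases in a row shared, and Akr1c6 and Akr1c20 followed at 92.3% with at most 65 bases in a row shared. The first 120 coding bases of Akr1c12, Akr1c13 and Akr1c6, from the GENCODE M21 annotation of GRCm38, are given 5′ to 3′ to show how little separates the first 2 of them, with capitals at bases that differ from Akr1c12.
Akr1c12, coding bases 1 to 120: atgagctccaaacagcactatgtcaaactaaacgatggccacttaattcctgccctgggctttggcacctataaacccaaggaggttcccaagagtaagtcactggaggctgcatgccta
Akr1c13, coding bases 1 to 120: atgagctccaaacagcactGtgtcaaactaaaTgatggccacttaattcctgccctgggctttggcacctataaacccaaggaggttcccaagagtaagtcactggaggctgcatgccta
Akr1c6, coding bases 1 to 120: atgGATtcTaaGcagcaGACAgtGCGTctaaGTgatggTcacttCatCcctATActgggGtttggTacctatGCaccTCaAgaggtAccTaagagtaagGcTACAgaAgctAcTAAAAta
In this stretch Akr1c13 differed from Akr1c12 at 2 bases and Akr1c6 at 42. The values of Akr1c12 and Akr1c13 are therefore uncertain as separate measurements, since a read that lies inside a shared run cannot be given to either gene alone. The ADH genes were less alike, at 62.8% to 73.2% over 15 pairs with at most 54 bases in a row shared. Among the ALDH3 genes Aldh3b2 and Aldh3b3 shared 90.5% and up to 255 bases in a row, and both were under the filter.

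**Figure D4:**
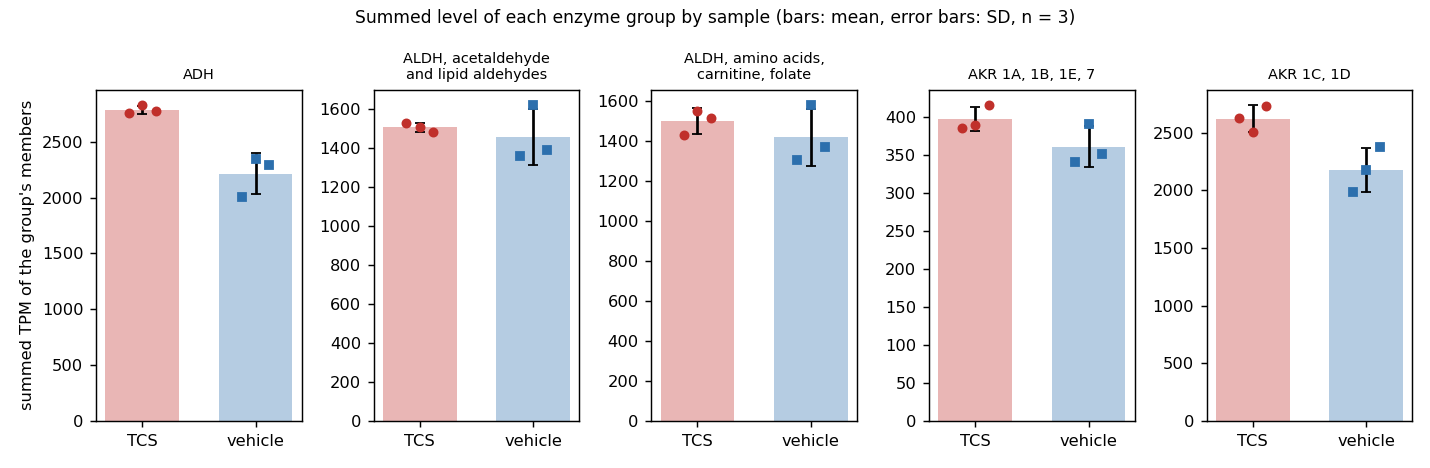
Summed TPM, as deposited and not rescaled, of the members of each enzyme group in every sample, TCS to the left of vehicle, with bars at the mean, error bars at 1 SD (n = 3) and points for samples. The ADH sum (2760 to 2825 TPM in TCS livers, 2001 to 2342 TPM in vehicle livers) and the AKR 1C and 1D sum (2509 to 2737 TPM in TCS livers, 1985 to 2374 TPM in vehicle livers) did not overlap, and the other 3 sums did.

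Summed over each group, the ADH genes reached 2760, 2825 and 2772 TPM in TCS livers, against 2001, 2342 and 2292 TPM in vehicle livers, and the AKR 1C and 1D genes reached 2628, 2509 and 2737 TPM in TCS livers, against 1985, 2174 and 2374 TPM in vehicle livers. Neither sum overlapped between the groups, and Adh1 and Akr1c6 made up most of them. All sums are of TPM as deposited, where the upward lean of the table depended on scaling. After median-of-ratios rescaling Akr1c6 overlapped between the groups, while Adh1 stayed free of overlap. Whether the 2 sums stay apart under another scaling was not tested. The ALDH genes of acetaldehyde and lipid aldehydes summed to 1481 to 1529 TPM in TCS livers and 1360 to 1618 TPM in vehicle livers, and those of amino acids, carnitine and folate to 1428 to 1552 TPM in TCS livers and 1306 to 1578 TPM in vehicle livers. In both, vehicle sample 2 was the highest of all 6 samples. The remaining AKR genes summed to 386 to 416 TPM in TCS livers and 341 to 392 TPM in vehicle livers.

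Vehicle sample 2 recurred across the members. It was the highest vehicle sample for 18 of the 30 tested members (60%), and for 32.7% of all genes tested, while vehicle sample 1 was the lowest for 21 of the 30 (70%) and for 39.2% of all genes. Relative to the mean of the vehicle samples, the median member lay at -0.11, 0.13 and 0.00 on the log2 scale in vehicle samples 1, 2 and 3, and at 0.12, 0.20 and 0.21 in TCS samples 1, 2 and 3. Vehicle sample 2 was thus level with TCS sample 1 in this measure, where the median of all genes stood at -0.01 in vehicle sample 2 and at 0.07 in TCS sample 1. Left out, it raised the number of members higher without overlap to 18 of 30, against 32.7% of all genes, with Aldh2, Aldh3a2, Aldh5a1, Aldh6a1, Aldh7a1, Adh5, Akr1a1, Akr1c13 and Akr1c19 as the 9 added. Without TCS sample 1 the number was 15, against 40.7% of all genes.

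These were also the samples with little Xist. Between TCS sample 1 and vehicle sample 2 alone, 12 of the 30 members were higher in the TCS sample with a median ratio of 0.983, where 8194 of 13325 genes were higher with a median ratio of 1.07. For the 9 members higher without overlap the ratio ran between 1.01 for Aldh4a1 and 1.82 for Adh4, with Akr1d1 at 1.36 and Adh1 at 1.2. In these 9 every TCS sample lies above every vehicle sample, so ratios above 1 were fixed by the choice and only their size is information. One sample a group allows no test. With the Xist level as a covariate in the fit, the log2 fold change of Adh1 was 0.37 (adjusted p = 0.107), that of Adh4 0.61 (adjusted p = 0.104) and that of Akr1d1 0.41 (adjusted p = 0.0941).

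On TPM as deposited, TCS livers were closer to one another than vehicle livers in most members. The coefficient of variation was smaller among the TCS samples for 22 of the 30 tested members (73.3%), with a median of 6.97% in TCS livers and 10.6% in vehicle livers. Over all genes tested the medians were 10.5% in TCS livers and 11.7% in vehicle livers, and the share with the smaller value in TCS livers was 54.9%. Many of those genes are at lower levels than the members. Among the 1794 genes of at least 50 TPM the medians were 6.57% in TCS livers and 8.2% in vehicle livers, with 59.5% smaller in TCS livers. For the 20 members of at least 50 TPM these were 6.13%, 9.41% and 80%. The median-of-ratios factors span a wider range in TCS samples (1.01 to 1.11) than in vehicle samples (0.928 to 0.983), and the spread was not taken after rescaling. With 3 samples a group the spread itself is loosely measured, and the difference in spread was not tested.

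**Figure D5:**
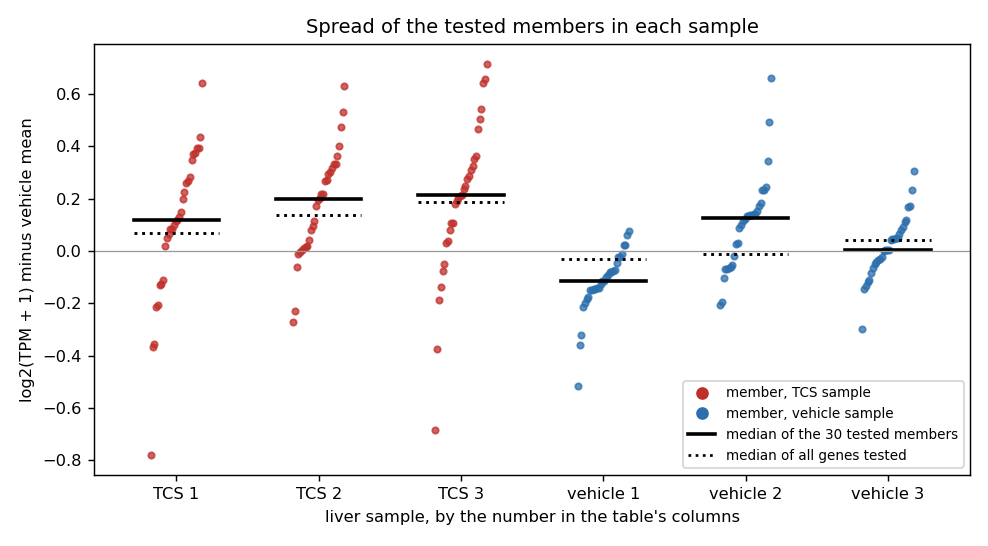
Each tested member in each sample as log2(TPM + 1) minus the mean of the vehicle samples, with the median of the 30 members as a solid line and the median of all genes tested as a dotted line. The members' median lies at 0.12 to 0.21 in the TCS samples and at -0.11, 0.13 and 0.00 in vehicle samples 1, 2 and 3. By it alone, vehicle sample 2 stands with the TCS samples. The dotted line lies at 0.07, 0.14 and 0.19 in TCS samples 1, 2 and 3, and at -0.03, -0.01 and 0.04 in vehicle samples 1, 2 and 3. The solid line stands furthest above the dotted line in vehicle sample 2.

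Other enzymes of alcohols and aldehydes outside the 3 families were measured beside them. Of 19 listed genes 17 were tested, and 0 passed the adjusted threshold. Without overlap, 8 were higher in TCS livers (47.1%, against 25.1% of all genes) and 0 lower (4.61% of all genes). The median log2 fold change was 0.18, against 0.13 for all genes. These are of TPM as deposited, and the list was not counted after rescaling. Aox1, an aldehyde oxidase, had 15.3, 17.0 and 20.8 TPM in TCS livers, against 6.33, 10.5 and 8.96 TPM in vehicle livers, a log2 fold change of 0.98 (SE 0.19, adjusted p = 0.0882). Aox3, the related oxidase that prevails in mouse liver, had 150, 155 and 174 TPM in TCS livers, against 89.6, 104 and 119 TPM in vehicle livers, a log2 fold change of 0.62 (SE 0.12, adjusted p = 0.0872). Both aldehyde oxidases had larger fold changes than any of the 30 tested members, and neither passed. Glo1, which detoxifies methylglyoxal, averaged 287 ± 16.6 TPM in TCS livers and 224 ± 20.2 TPM in vehicle livers, and Cat, the peroxisomal catalase that can also oxidise ethanol, 1093 ± 45.1 TPM in TCS livers and 862 ± 86.4 TPM in vehicle livers (SD, n = 3 each), both without overlap and with adjusted p of 0.107 and 0.114. Cyp2e1, the ethanol-inducible cytochrome P450, had 5620, 4420 and 4360 TPM in TCS livers, against 4820, 7110 and 5100 TPM in vehicle livers, which overlapped.

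Array weights, with which limma gives less weight to samples that fit the model poorly, were the single alternative under which members passed the threshold. In that fit 6 did so, all higher in TCS livers, namely Adh1 (adjusted p = 0.0296), Akr1d1 (0.0312), Aldh9a1 (0.0368), Adh4 (0.0405), Aldh4a1 (0.0472) and Akr7a5 (0.0481), which is 20% of the 30 against 7.55% of all genes called higher, among 1240 genes called in all. That fit was of TPM as deposited, where 1006 genes were called higher and 234 lower, and array weights were not run after rescaling. Of the 6, Adh1, Adh4 and Akr1d1 stayed free of overlap under median-of-ratios and quantile scaling, and Aldh9a1, Aldh4a1 and Akr7a5 overlapped under both. Across the 16 alternatives the adjusted p of Adh1 lay between 0.0296 and 0.279 and that of Adh4 between 0.0405 and 0.269. With 3 samples against 3, an exact permutation test of a single gene cannot go below p = 0.1, so no member could pass 0.05 in such a test.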

How the data were processed

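RNA-seq of liver was analysed in 6 samples, 3 TCS and 3 vehicle. Per the submitters' processing notes and the methods, the authors used bcl2fastq 2.17.1.14 for base calls and STAR 2.2.0c for alignment to mm10 (GRCm38), keeping reads with a single alignment, and the methods then describe FPKM over RefSeq exons from HOMER. The table they deposited instead holds TPM under Ensembl identifiers, to 3 significant digits, and how TPM was made is not given in the sources used here. TPM sums to the same total in each sample, so a gene's share can shift because others do, and no counting error can be given. A second deposited sheet, with the authors' log2 fold changes and adjusted p-values, was not used.

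The 13325 genes at 1 TPM or more in 3 or more samples entered a fit of log2(TPM + 1) by limma 3.58.1 in R 4.3.3, using a variance trend, all 6 samples and no covariate, with Benjamini-Hochberg adjustment over all of them. A test of counts was not run, since the table holds none. The fit was run on simulated data with added effects larger than any member's log2 fold change, so its power at the members' size of change was not measured. Since the labels do not describe how the pools were drawn, p-values measure the spread between these samples. They treat the pools as independent, although pools of a group may share litters. The members, the role lists and the marker lists (hepatocyte, periportal, pericentral, Kupffer, endothelial, stellate, cholangiocyte, lymphocyte and neutrophil, erythroid, acinar and sex-linked genes) were chosen with earlier results of these data known. Members averaging 1 TPM or more in either group are named with values. Values in every sample are given for members averaging 5 TPM or more without overlap and for the 2 most abundant in each role list. Further members shown in full (Akr1b7, Akr1c19, Akr1c18 and Aldh3a1) and Cyp2e1 were chosen after their values were seen. Of the other enzymes without overlap, the 4 with the largest log2 fold change are named.

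Promoters are RefSeq windows, and coding sequences were read from the GENCODE M21 annotation and aligned in pairs with Biopython 1.88. The alternatives were a smaller pseudocount (0.1), testing every gene above 0 in any sample, requiring 5 TPM, median-of-ratios and quantile scaling, no variance trend, array weights, the Xist level as a covariate, the column number as a replicate block, protein-coding genes alone, and each sample left out in turn.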

Additional observations from a re-analysis of the deposited data

How the results depend on the processing

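No member passed the adjusted threshold in the main analysis or in 15 of the 16 alternatives, and 6 did with array weights. The count over all genes (23) was 0 without the filter, 59 with the filter at 5 TPM, 115 among protein-coding genes alone, 1240 with array weights, 4 with the Xist covariate, 0 with the replicate block, and 0 to 29 with 1 sample left out. Members higher without overlap (9) numbered 3 after median-of-ratios scaling, 5 after quantile normalization and 9 to 18 with 1 sample left out, and members lower without overlap (1) numbered 3, 3 and 1 to 3. At an unadjusted p under 0.05 in limma, the members that were higher (11) numbered 3 after median-of-ratios scaling, 5 after quantile normalization and 5 to 13 with 1 sample left out. Over the whole table the genes that were higher (2597 of 13325) numbered 1107, 1160 and 1580 to 2911. The members that were lower (2) numbered 3 after median-of-ratios scaling, 1 with array weights, 1 with the Xist covariate and 0 to 1 with 1 sample left out. Over the whole table the genes that were lower (466) numbered 1195, 686, 484 and 369 to 458. The difference of the members' median log2 fold change over that of all genes (0.018) was -0.00047 with a pseudocount of 0.1, -0.0016 after median-of-ratios scaling, 0.063 after quantile normalization, 0.082 without the filter, 0.047 with the filter at 5 TPM, 0.069 with array weights, and -0.0029 (without vehicle sample 1) to 0.071 (without vehicle sample 2) with 1 sample left out. The cause of these shifts was not tested. Same-numbered columns did not deviate together (r = -0.01, -0.25 and -0.07). Whether they were paired by design is not known, and these correlations cannot show it. No member was called in the main fit, and with the replicate block 0 of all genes passed. The members' unchanged calls under the block therefore carry no information on pairing. Median-of-ratios and quantile scaling moved the median of all genes by more than 0.1 on the log2 scale. The read depth is unknown, so the counting error of the members under 1 TPM could not be given.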
